A study of Mus musculus with 8 samples.

Results

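The RNA of 46 DNA replication genes was examined in whole testes of mice that lose Spdya in their germ cells. The genes encode parts of the replication machinery, from origin licensing to chromatin assembly, and were taken from the deposited table by gene symbol among its protein-coding rows. All 46 were found, of 22046 protein-coding genes and 54532 genes in the table. The rule uses symbols and no measured value. Members are grouped below by role: licensing (5 genes), the MCM2-7 helicase (6), helicase activation (6), polymerases and primase (7), the clamp and its loaders (8), Okazaki fragment maturation (2), RPA (3), nucleotide supply (4), chromatin assembly (2) and E2F factors (3).

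DNA replication starts when the origin recognition complex, Cdc6 and Cdt1 load the ring-shaped MCM2-7 helicase onto DNA, and Gmnn (geminin) holds Cdt1 in check. Cdc45 and the GINS complex switch the helicase on, primase and polymerase alpha lay the first primers, and polymerases delta and epsilon copy the strands while tethered by the Pcna ring. In the testis, spermatogonia replicate before each mitosis and preleptotene spermatocytes replicate once more before meiosis, while pachytene spermatocytes are past this premeiotic S phase. Many replication genes are known E2F targets that rise as a cell enters S phase.

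Whole testes were compared between 4 Spdya fl/fl mice without Cre (control) and 4 Spdya fl/fl;Ddx4-CreERT2 mice (cKO), with 1 library per mouse. Spdya encodes Speedy A, an activator of cyclin-dependent kinases that sits on meiotic telomeres, and tamoxifen-activated Cre driven by the germ cell gene Ddx4 removes its exon 2, so somatic cells keep the gene. Both groups had their spermatogenesis synchronized with an inhibitor of retinoic acid synthesis followed by retinoic acid at postnatal day 9, both received tamoxifen, at RA7.5 and RA8.5 per the labels, and both were collected at RA11.5, or postnatal day 20.5. RA11.5 counts days from the retinoic acid dose.

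Gene positions are on GRCm38, the build the labels name. The files hold FPKM, a count of sequenced fragments scaled by gene length and by library size. The fragments behind them ranged from 13978342 to 17867570 in controls and from 15494873 to 19583091 in cKO libraries. Spdya was 20.8, 21, 23.8 and 19.7 FPKM in controls and 30.5, 22.2, 26.1 and 17.7 FPKM in cKO libraries. The groups overlapped, with a log2 difference of 0.15 (limma adjusted p = 0.787). The value covers the whole gene and not exon 2 alone, so it does not check the deletion. Control replicate 1 stands apart from the other libraries: mitochondrial genes took 0.464% of its fragments against 2.20% to 3.74% in the other 7.

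The labelled tissue was checked against cell markers. Pachytene markers summed to 821 to 1344 FPKM in controls and 635 to 984 FPKM in cKO libraries, and Sertoli cell markers to 262 to 386 FPKM and 300 to 365 FPKM. Both cell types were detected in every library. The round spermatid markers Acrv1, Tnp1, Prm1 and Prm2, the Leydig cell markers Cyp17a1 and Insl3, the peritubular marker Tagln and the pachytene marker Hist1h1t averaged below 1 FPKM. Mitosis genes (Mki67, Aurkb, Plk1, Bub1 and Ccnb2) summed to 106 to 205 FPKM in controls and 127 to 171 FPKM in cKO libraries. In whole testis, fewer cells of a type and less RNA per cell cannot be told apart.

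Because E2F factors are members and many members are their known targets, the 250 bases before each RefSeq start (GRCm38.p6) were searched on both strands. The letters searched were 4 E2F-type octamers (TTTGGCGC, TTTCCCGC, TTTGCCGC and TTTCGCGC), the CCAAT box, and the cell cycle element TTTGAA. A RefSeq promoter was given for 37 of the 46 members. An octamer lay in 8 of these, or 21.6%, against 2.16% of all 27025 genes with a promoter. The 8 were Cdc6, Orc1, Mcm5, Mcm6, Mcm7, Gins3, Rfc3 and E2f7. A CCAAT box lay in 24 of 37 members (64.9%) against 37.5% of all genes, and TTTGAA in 6 of 37 (16.2%) against 18.3%. A match of letters is a description of the sequence and not a binding site.

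The promoters of Mcm5, Mcm6 and E2f7 are shown because they hold an octamer and no annotated exon. That of Chaf1a is shown because it lacks the octamers searched and is among the 5 members with the lowest p described below. The choice was made after the values were seen. The other 5 octamer windows, Mcm7 among them, run over an annotated exon of the same gene and are not printed. Exons of other genes were not checked. The windows are chr8:75109259-75109508 (plus strand), chr1:128359706-128359955 (minus strand), chr10:110745189-110745438 (plus strand) and chr17:56040166-56040415 (plus strand), each read 5′ to 3′ toward the gene. Capitals mark the octamers and CCAAT boxes on either strand.
Mcm5: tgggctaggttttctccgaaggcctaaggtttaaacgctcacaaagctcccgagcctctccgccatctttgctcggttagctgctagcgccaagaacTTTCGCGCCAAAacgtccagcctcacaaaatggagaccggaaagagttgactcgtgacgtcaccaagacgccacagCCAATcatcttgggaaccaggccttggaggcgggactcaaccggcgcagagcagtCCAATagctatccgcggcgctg
Mcm6: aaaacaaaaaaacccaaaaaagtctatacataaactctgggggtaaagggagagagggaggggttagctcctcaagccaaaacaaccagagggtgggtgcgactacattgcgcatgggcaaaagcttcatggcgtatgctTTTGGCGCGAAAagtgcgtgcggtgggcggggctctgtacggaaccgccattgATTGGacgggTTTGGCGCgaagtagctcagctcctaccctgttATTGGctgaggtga
E2f7: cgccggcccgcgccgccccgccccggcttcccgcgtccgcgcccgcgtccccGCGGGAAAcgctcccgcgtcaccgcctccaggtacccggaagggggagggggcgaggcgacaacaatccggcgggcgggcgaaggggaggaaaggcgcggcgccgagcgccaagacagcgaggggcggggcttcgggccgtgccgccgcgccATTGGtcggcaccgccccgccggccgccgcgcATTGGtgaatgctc
Chaf1a: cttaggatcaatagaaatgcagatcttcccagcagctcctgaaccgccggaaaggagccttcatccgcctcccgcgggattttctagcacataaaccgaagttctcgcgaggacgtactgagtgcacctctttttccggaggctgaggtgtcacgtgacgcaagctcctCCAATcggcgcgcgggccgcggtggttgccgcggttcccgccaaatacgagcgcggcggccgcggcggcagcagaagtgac

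In Mcm5 an octamer on each strand shares letters with the other, from 153 to 142 bases before the start. Mcm6 holds the same kind of overlap from 110 to 99 bases before the start, and a further TTTGGCGC from 47 to 40 bases. E2f7 carries TTTCCCGC on the opposite strand, 198 to 191 bases before the start. The 37 members were split by the searched octamers only, so the group without one includes Chaf1a with its near match. The median log2 difference between cKO and control was -0.05 for the 8 with an octamer and -0.08 for the 29 without. These medians were 0.08 and -0.02 without control replicate 1, and 0.03 and -0.01 with the values rescaled to TPM. The median of control replicate 1 stood 0.36 above the gene's mean over all libraries (log2) in the 8 and 0.23 above it in the 29.

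Levels differed widely between members. All 46 passed the filter of a mean above 1 FPKM in both groups, and their mean levels ran from 1.39 FPKM (Fen1) to 79.4 FPKM (Pcna). Their median was 16.1 FPKM, against 9.54 FPKM over all 12141 genes tested, and 29 of 46 (63.0%) stood above the median of all genes. At the low end, 8 of 46 averaged 5 FPKM or less, Tyms, E2f8 and Fen1 among them. FPKM divides by the deposited length of each gene, so levels of different genes also depend on that length. In addition, 13 members overlap a gene above 1 FPKM on the opposite strand.

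Subunits of the same complex differed widely in level. In the MCM2-7 ring, whose 6 subunits join in equal number, mean FPKM ran in the order Mcm7 (59.3), Mcm3 (51.1), Mcm5 (34), Mcm6 (28.4), Mcm4 (22.3) and Mcm2 (18.5). The ranges over libraries overlapped between every pair of neighbours in this order. Mcm7 was 2.79 to 3.91 times Mcm2 within the control libraries and 2.66 to 3.77 times within the cKO libraries. In the GINS complex, Gins4 (31.5 FPKM) and Gins1 (29.1) stood far above Gins2 (7.20) and Gins3 (5.04). Their deposited lengths were 1349, 1516, 4097 and 2709 bases, in that order. Gins1 was 3.80 to 6.62 times Gins3 in controls and 5.06 to 8.22 times in cKO libraries. Of the RFC loader, Rfc4 (34.3 FPKM, 1533 bases) was the highest and Rfc5 (6.59 FPKM, 4669 bases) the lowest. On the opposite strand, Rfc4 overlaps Eif4a2 (94.4 FPKM), Rfc5 overlaps Wsb2 (26.2 FPKM) and Gins2 overlaps Gse1 (5.34 FPKM). Whether strand was used in counting is not given in the sources used here, so these levels are uncertain.

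**Figure D1:**
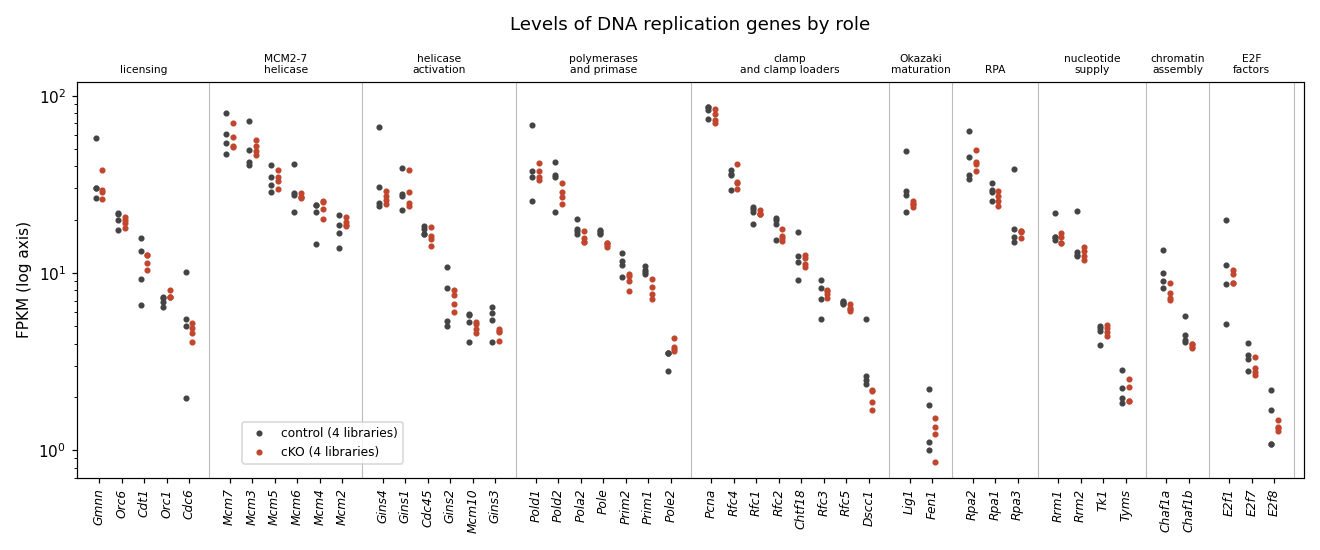
FPKM (log axis) of the 46 DNA replication genes in each of the 4 control (grey) and 4 cKO (red) libraries, ordered by mean level within each role. Pcna is the highest at 79.4 FPKM on average and Fen1 the lowest at 1.39, and most genes show overlapping groups.

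No DNA replication gene was called DE between cKO and control testes. The test was limma on log2(FPKM + 0.1) over the 12141 genes. A gene was called at an adjusted p (Benjamini-Hochberg) under 0.05 together with a log2 difference beyond 1 in either direction. It called 0 of 46 members and 0.0165% of all genes, and voom on the recovered fragments also called 0 of 46. At an unadjusted p below 0.05, 5 members (10.9%) were lower in cKO libraries, beside 5% of all genes, and 0 members were higher, beside 5.89% of all genes. In either direction this was 5 of 46 beside 10.9% of all genes, so the total equals the background. The 5 were Prim1, Prim2, Pole, Dscc1 and Chaf1a, and their smallest adjusted p was 0.28.

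The 4 values of each group did not overlap in 4 members that were lower in cKO libraries (Prim1, Pole, Dscc1 and Chaf1b), beside 2.59% of all genes. They did not overlap in 1 member that was higher (Pole2), beside 3.64%. The log2 fold change (cKO minus control) was below 0 in 36 of the 46 members (78.3%), beside 48.0% of all genes, and its median was -0.09 against 0.01 over all genes tested. With the values rescaled to TPM, 25 of 46 were below 0, beside 32.6% of all genes, and the median was -0.01 against 0.09. Without control replicate 1 the median was -0.02 against 0.03 over all genes, with 25 of 46 below 0 beside 42.8%.

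The count of 5 depended on single libraries. It was 3 without control replicate 1 or without cKO replicate 3, 2 without cKO replicate 2 or cKO replicate 4, and 3 on the TPM scale. The share of all genes lower at this p was 5.90%, 2.86%, 3.39%, 2.67% and 2.97% in the same order. It was 7 without control replicate 4, beside 7.81% of all genes, 5 without control replicate 2 or 3, and 4 without cKO replicate 1, beside 4.94%, 3.15% and 6.58%. Leaving out control replicates 1 and 3 together, an alternative chosen after seeing the data, gave 5 members beside 3.20% of all genes, and of the original 5 these held Prim1 and Pole.

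**Figure D2:**
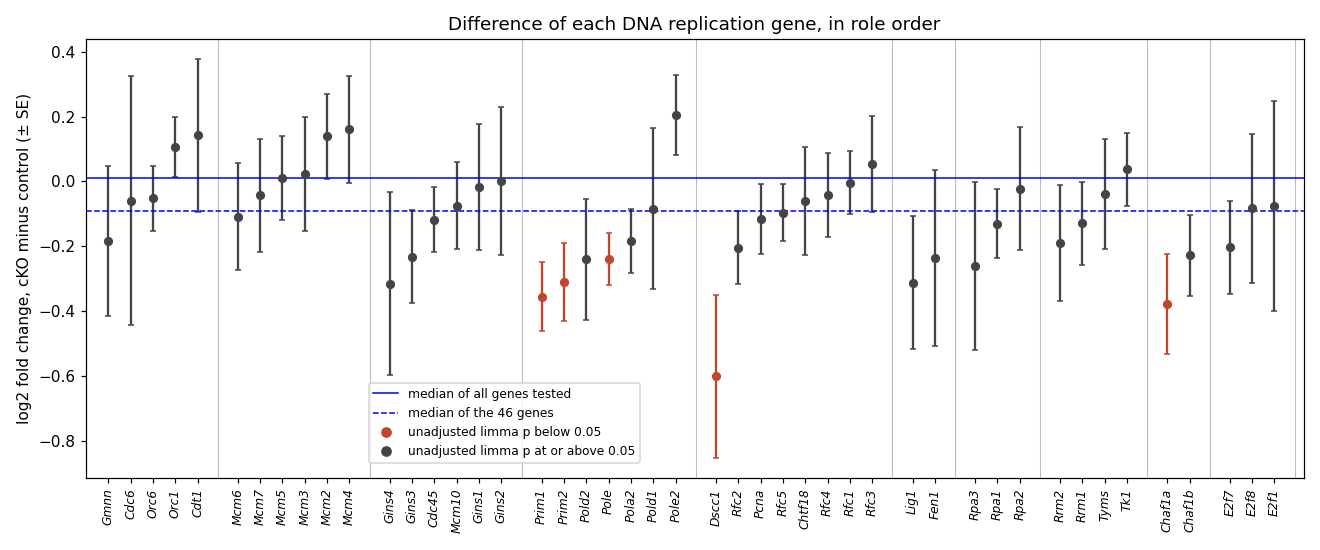
Log2 fold change (cKO minus control) of each member with its limma standard error, grouped by role and sorted within it. The 5 members at an unadjusted p below 0.05 (red) lie between -0.24 and -0.60, and the dashed line of the members' median (-0.09) lies below the solid line of all genes (0.01).

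The lowest p among members belonged to genes that prime and extend new DNA. Prim1 (ENSMUSG00000025395, chr10:128015168-128030037), the catalytic subunit of primase, was 10.4, 9.82, 10.9 and 10.1 FPKM in controls and 7.57, 8.29, 9.31 and 7.17 FPKM in cKO libraries. Every cKO library lay below every control. Its log2 fold change was -0.35 (limma adjusted p = 0.28, standard error 0.11). It stayed at an unadjusted p below 0.05 with each of the 8 libraries left out in turn, but not on the TPM scale, where it was -0.28.

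Prim2 (ENSMUSG00000026134, chr1:33453810-33669795), the regulatory subunit that partners Prim1, was 13, 11.1, 11.7 and 9.55 FPKM in controls and 9.91, 9.0, 9.59 and 7.88 FPKM in cKO libraries. Control replicate 4 fell among the cKO values. cKO against control gave a log2 fold change of -0.31 (limma adjusted p = 0.404, standard error 0.12). The unadjusted p was above 0.05 without control replicate 1, control replicate 3, cKO replicate 2 or cKO replicate 4. Both primase subunits were at a like level, with Prim1 at 0.804 to 1.06 times Prim2 in controls and 0.764 to 0.971 times in cKO libraries.

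Pole (ENSMUSG00000007080, chr5:110286306-110337474), the catalytic subunit of polymerase epsilon on the leading strand, was 17.3, 16.7, 17.5 and 16.8 FPKM in controls and 14.7, 14.7, 14.0 and 14.3 FPKM in cKO libraries. The groups were narrow and apart, with 17.1 ± 0.391 FPKM (SD, n = 4) against 14.5 ± 0.336 FPKM (SD, n = 4). On the log2 scale the difference was -0.24 (limma adjusted p = 0.333, standard error 0.08). The unadjusted p was above 0.05 without cKO replicate 3 and on the TPM scale. An antisense gene, Gm15792, overlaps Pole at 2.84 FPKM.

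Its partner subunit Pole2 (ENSMUSG00000020974, chr12:69201773-69228195) went the other way, with 3.55, 2.80, 3.53 and 3.56 FPKM in controls and 3.65, 3.80, 4.32 and 3.72 FPKM in cKO libraries. Each cKO value was above each control value, although control replicate 4 and cKO replicate 1 lay close together. Its log2 fold change was 0.20 (limma adjusted p = 0.604, standard error 0.12), and 0.12 without control replicate 2, the low control. The ratio of Pole to Pole2, looked at after these values were seen, was 4.72 to 5.97 in controls and 3.25 to 4.04 in cKO libraries.

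Of the other polymerase subunits, Pold1, the catalytic subunit of polymerase delta, was the most abundant. Pold1 was 68.2, 37.7, 34.7 and 25.6 FPKM in controls and 41.5, 33.3, 37.4 and 35.0 FPKM in cKO libraries. The cKO values all lay between control replicates 1 and 4. cKO against control gave a log2 fold change of -0.08 (limma adjusted p = 0.932, standard error 0.25), and it turned to 0.19 without control replicate 1. The accessory subunits Pold2 and Pola2 averaged 30.9 and 16.8 FPKM, with overlapping groups. The polymerase and primase group had 6 of 7 members below 0, a median of -0.24, and a median of -0.16 on the TPM scale and -0.13 without control replicate 1.

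**Figure D3:**
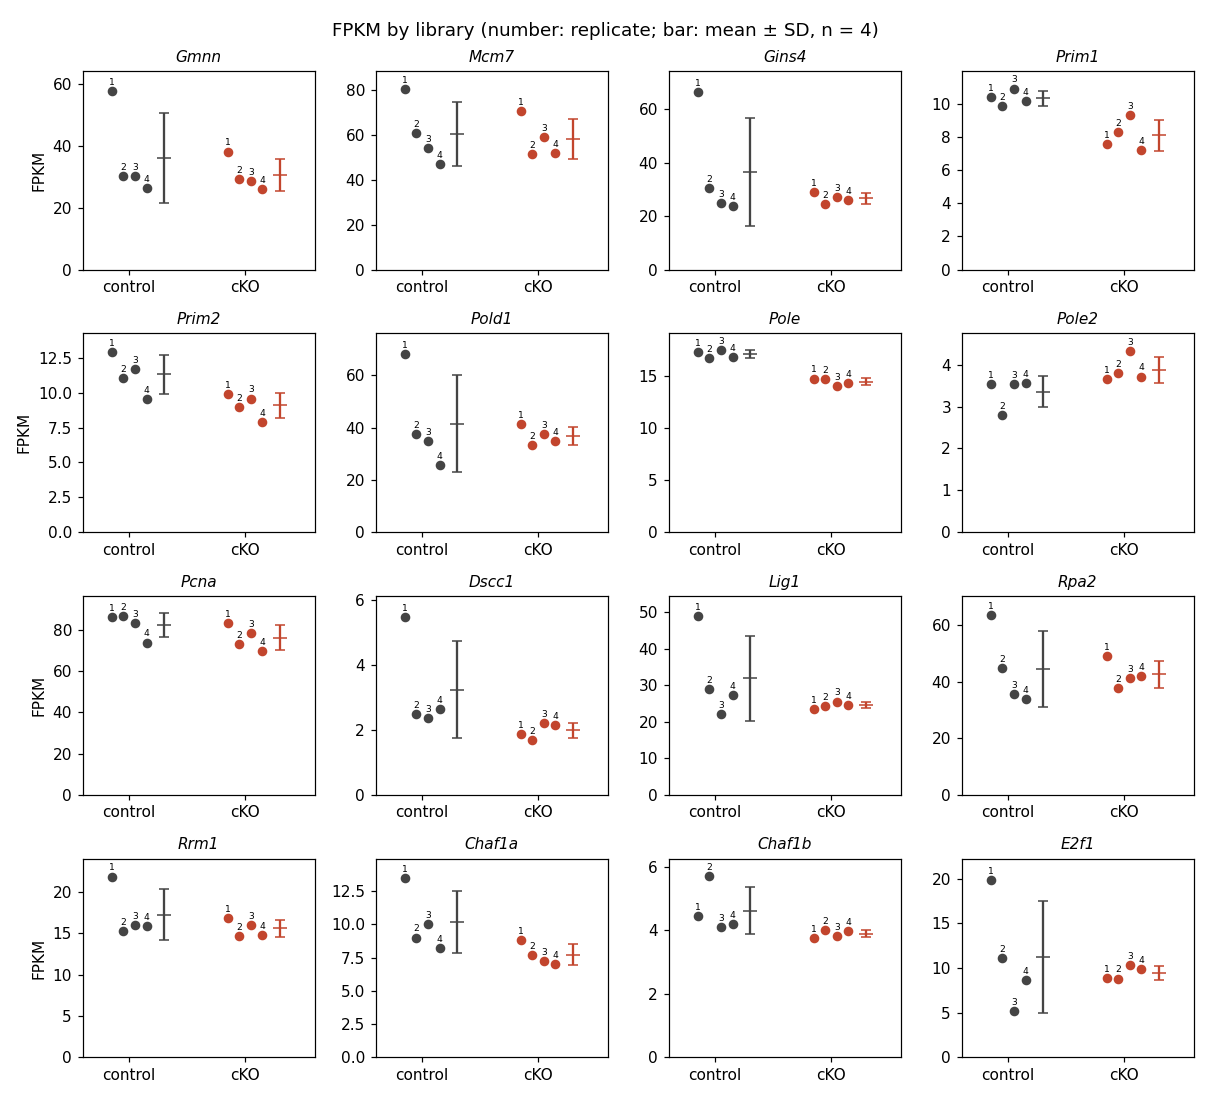
FPKM of 16 members in each library, with the replicate number above each point and the mean ± SD of 4 libraries beside it. Prim1, Pole, Dscc1, Chaf1b and Pole2 show groups that do not overlap, and control replicate 1 is the highest point for Gmnn (57.9 FPKM), Gins4 (66.5), Pold1 (68.2), Lig1 (49.0) and Rpa2 (63.5).

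Chromatin assembly factor 1 deposits histones behind the fork, and both of its members were lower on average in cKO libraries. Chaf1a (ENSMUSG00000002835, chr17:56040439-56072289), its large subunit, was 13.5, 9.01, 10.01 and 8.22 FPKM in controls and 8.82, 7.7, 7.25 and 7.05 FPKM in cKO libraries. Only cKO replicate 1 exceeded a control, namely control replicate 4. On the log2 scale the difference was -0.38 (limma adjusted p = 0.426, standard error 0.15), and it was -0.23 without control replicate 1. The unadjusted p was above 0.05 without control replicate 1 or 3, or without cKO replicate 2, 3 or 4. Ubxn6 lies on the opposite strand over part of Chaf1a at 7.21 FPKM.

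Chaf1b (ENSMUSG00000022945, chr16:93883901-93906115), which binds Chaf1a in the complex, was 4.45, 5.69, 4.10 and 4.20 FPKM in controls and 3.76, 4.00, 3.83 and 3.98 FPKM in cKO libraries. The groups touched without overlap, 4.00 FPKM being the highest cKO value and 4.10 the lowest control. Its log2 fold change was -0.23 (limma adjusted p = 0.565, standard error 0.13), and it was -0.12 without control replicate 2.

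Of the sliding clamp and its loaders, Dscc1 alone had an unadjusted p below 0.05. Pcna (ENSMUSG00000027342), the ring that holds polymerases on DNA, was 86.4, 86.6, 83.2 and 73.9 FPKM in controls and 83.6, 73.2, 78.6 and 69.7 FPKM in cKO libraries. The ranges overlapped through most of their length, with a log2 fold change of -0.11 (limma adjusted p = 0.762, standard error 0.11). A pseudogene-named row, Pcna-ps2, was listed at 0.949 FPKM.

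Dscc1 (ENSMUSG00000022422, chr15:55076099-55090491) belongs to the alternative clamp loader that also serves sister chromatid cohesion. It was 5.48, 2.48, 2.37 and 2.63 FPKM in controls and 1.87, 1.70, 2.20 and 2.15 FPKM in cKO libraries. Control replicate 1 was far above every other library, and the other 3 controls were above all cKO libraries by a small margin. cKO against control gave a log2 fold change of -0.60 (limma adjusted p = 0.439, standard error 0.25), the largest of any member, and -0.32 without control replicate 1. Without cKO replicate 1, 2 or 4 the unadjusted p was above 0.05. The gene rested on 120 to 318 fragments per library. Its partner Chtf18, in the same loader, averaged 12.5 ± 3.27 FPKM in controls and 11.7 ± 0.781 FPKM in cKO libraries (SD, n = 4).

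Rfc1 to Rfc5 form the standard loader around Pcna. Their mean levels were 21.8, 17.5, 7.61, 34.3 and 6.59 FPKM, in that order, and their log2 fold changes ran from -0.20 (Rfc2) to 0.05 (Rfc3). None had an unadjusted p below 0.05. Rfc1 and Rfc3 were at their lowest in control replicate 1, unlike most members.

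Of the licensing genes, Cdc6, Cdt1 and Gmnn spread more widely within the controls than Orc1 and Orc6. Gmnn (ENSMUSG00000006715), the inhibitor of Cdt1 and the most abundant of this group, was 57.9, 30.2, 30.3 and 26.5 FPKM in controls and 38.3, 29.4, 28.7 and 26.1 FPKM in cKO libraries. Replicate 1 was the highest of each group and the remaining values ran together. On the log2 scale the difference was -0.18 (limma adjusted p = 0.823, standard error 0.23), and 0.06 without control replicate 1.

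Cdc6, which helps to load the helicase, ranged from 1.98 FPKM in control replicate 3 to 10.1 FPKM in control replicate 1, while its cKO values kept between 4.08 and 5.22 FPKM. Cdt1 ranged from 6.60 to 15.8 FPKM across the same controls and from 10.4 to 12.7 FPKM in cKO libraries. Orc1, the largest subunit of the origin recognition complex, averaged 6.97 ± 0.403 FPKM in controls and 7.51 ± 0.346 FPKM in cKO libraries (SD, n = 4), and Orc6 averaged 19.8 FPKM over all libraries. None of the 5 licensing genes had an unadjusted p below 0.05, and 3 of 5 log2 fold changes were below 0. On the TPM scale or without control replicate 1 this was 1 of 5, and without control replicate 3 it was 4 of 5.

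The MCM2-7 helicase genes differed little between groups. Mcm7 (ENSMUSG00000029730), the most abundant subunit, was 80.3, 60.6, 54.2 and 47.1 FPKM in controls and 70.5, 51.3, 58.8 and 51.8 FPKM in cKO libraries. The cKO values lay inside the control range. Its log2 fold change was -0.04 (limma adjusted p = 0.953, standard error 0.17), and 0.10 without control replicate 1. Mcm7 overlaps Cops6 (35.7 FPKM) and Ap4m1 (8.63 FPKM) on the opposite strand.

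Over the 6 MCM genes, log2 fold changes ran from -0.11 (Mcm6) to 0.16 (Mcm4) with a median of 0.02, and 2 of 6 were below 0. On the TPM scale 1 of 6 was below 0. Without control replicate 1 this was 0 of 6, and without control replicate 3 it was 5 of 6. Control replicate 1 was the highest library for 5 of the 6 and control replicate 3 the lowest for 5 of the 6. All 6 spread more among controls than among cKO libraries.

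The genes that activate the helicase were likewise high in control replicate 1. Gins4 (ENSMUSG00000031546), a GINS subunit, was 66.5, 30.5, 24.9 and 23.8 FPKM in controls and 29.0, 24.4, 27.3 and 26.0 FPKM in cKO libraries. Control replicate 1 was far above the rest, and the other 3 controls interleaved with the cKO libraries. cKO against control gave a log2 fold change of -0.31 (limma adjusted p = 0.747, standard error 0.28), and 0.02 without that library. Cdc45, which forms the active helicase with MCM2-7 and GINS, averaged 17.3 ± 0.845 FPKM in controls and 16.0 ± 1.63 FPKM in cKO libraries (SD, n = 4), and Mcm10, a helper of the same step, averaged 5.11 FPKM over all libraries. All 6 genes of this group had their highest value in control replicate 1.

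Lig1 (ENSMUSG00000056394), the ligase that seals Okazaki fragments, was 49.0, 28.9, 22.2 and 27.4 FPKM in controls and 23.6, 24.4, 25.5 and 24.6 FPKM in cKO libraries. The cKO values clustered within 2 FPKM of each other, with control replicate 3 below them and the other controls above. On the log2 scale the difference was -0.31 (limma adjusted p = 0.636, standard error 0.20). It was -0.08 without control replicate 1, and -0.46, at an unadjusted p below 0.05, without control replicate 3. Fen1, the nuclease that trims the flaps before ligation, averaged 1.53 ± 0.569 FPKM in controls and 1.25 ± 0.287 FPKM in cKO libraries (SD, n = 4), from only 35 to 70 fragments per library. Fen1 overlaps Tmem258 (23.8 FPKM) on the opposite strand, so its level is uncertain.

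RPA coats the exposed strand. Rpa2 (ENSMUSG00000028884), its middle subunit, was 63.5, 44.9, 35.8 and 33.8 FPKM in controls and 49.2, 37.8, 41.3 and 42.1 FPKM in cKO libraries. Again the cKO values lay inside the control range, with a log2 fold change of -0.02 (limma adjusted p = 0.975, standard error 0.19), and 0.16 without control replicate 1. Rpa3 was 38.6 FPKM in control replicate 1 and 15 to 17.8 FPKM in the other controls, against 15.8 to 17.2 FPKM in cKO libraries. Rpa1, the large subunit that binds DNA, averaged 27.7 FPKM.

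Ribonucleotide reductase supplies deoxyribonucleotides. Its large subunit Rrm1 (ENSMUSG00000030978) was 21.9, 15.3, 16.0 and 15.9 FPKM in controls and 16.9, 14.7, 16.1 and 14.8 FPKM in cKO libraries. Apart from control replicate 1 the groups ran together, with a log2 fold change of -0.13 (limma adjusted p = 0.772, standard error 0.13), and -0.01 without that library. Rrm2, the subunit that follows the cell cycle, averaged 14.0 FPKM, and the thymidylate enzymes Tk1 and Tyms averaged 4.70 and 2.19 FPKM. Rrm1 and Rrm2 had nearly equal FPKM, with a ratio of 0.981 to 1.28 in controls and 1.15 to 1.28 in cKO libraries. Their deposited lengths were 11012 and 2771 bases.

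Among the E2F factors, E2f1 activates S phase genes, and E2f7 and E2f8 repress them. E2f1 (ENSMUSG00000027490) was 19.8, 11.1, 5.17 and 8.63 FPKM in controls and 8.83, 8.82, 10.4 and 9.88 FPKM in cKO libraries. Control replicate 1 was the highest and control replicate 3 the lowest, and the cKO values lay between them. Its log2 fold change was -0.08 (limma adjusted p = 0.954, standard error 0.32), and 0.25 without control replicate 1. E2f7 averaged 3.16 FPKM and E2f8 1.44 FPKM, and neither had an unadjusted p below 0.05.

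The members also differed between mice of the control group. Control replicate 1 was the highest of all 8 libraries for 31 of 46 members (67.4%), beside 34.2% of all genes tested. Control replicate 3 was the lowest for 16 of 46 (34.8%), beside 14.6% of all genes. The mean log2(FPKM + 0.1) of the 46 members ranged from 3.52 to 4.04 in controls and from 3.55 to 3.67 in cKO libraries. In 40 of 46 members control replicate 1 lay above the median of the other 3 controls. Over all 46 it was 1.23 times that median at the middle member and 2.67 times at most (Gins4). These values were not worked out over all genes. Relative to the gene's mean over all libraries (log2), the median of control replicate 1 was 0.36 over the members and 0.05 over all genes tested.

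**Figure D4:**
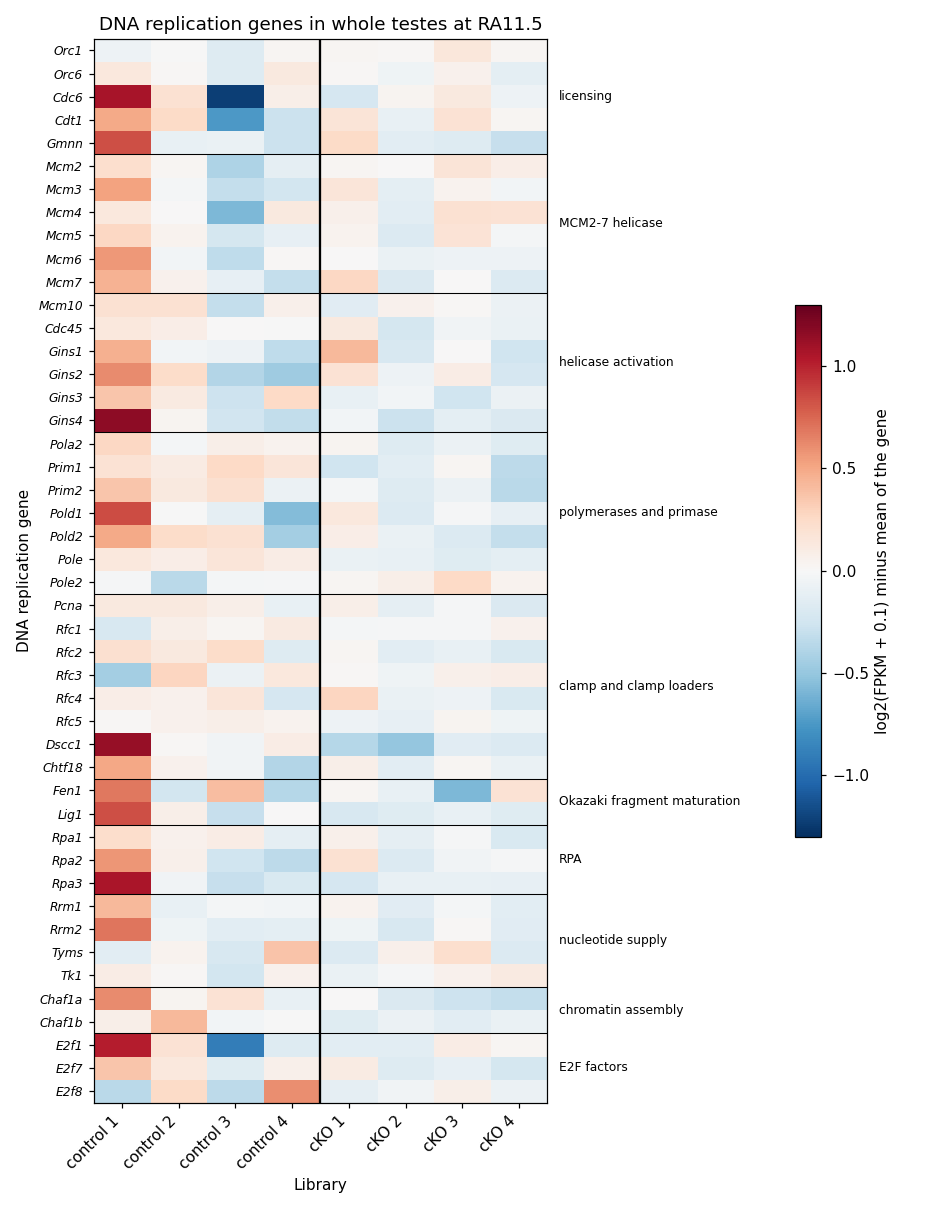
Heat map of the 46 members (rows, by role) in 8 libraries (columns), as log2(FPKM + 0.1) minus the mean of the gene over all libraries. Red cells predominate in the column of control replicate 1, the highest library for 31 of 46 members, and the blue cells of control replicate 3 gather in licensing and MCM2-7 genes.

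Controls spread more than cKO libraries in 40 of 46 members (87.0%) and in 81.3% of all genes tested. The median SD on the log2 scale was 0.29 among controls and 0.12 among cKO libraries for the members, against 0.25 and 0.13 for all genes. Without control replicate 1 the members' median control SD was 0.18, against 0.17 for all genes. In 24 of 46 members (52.2%) all 4 cKO values lay inside the control range, beside 42.8% of all genes.

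The role groups split in control replicate 3. Relative to the mean over all libraries, licensing genes averaged -0.48 there on the log2 scale, E2F factors -0.46 and MCM2-7 genes -0.33, while polymerases and primase averaged 0.11 and chromatin assembly genes 0.08. The same library had the highest sum of the mitosis markers (205 FPKM) and of the pachytene markers (1344 FPKM), and the lowest sums of the Sertoli markers (262 FPKM) and of the markers of undifferentiated spermatogonia (65.0 FPKM). Control replicate 1 had the lowest sums of the mitosis markers (106 FPKM), the macrophage markers (3.73 FPKM) and the endothelial markers (4.06 FPKM), and the highest of the Sertoli markers (386 FPKM). It also had the highest sums of the undifferentiated (101 FPKM) and of the differentiating and preleptotene markers (169 FPKM). Id4 (56.1 FPKM), Rhox13 (66.4 FPKM) and Sohlh1 (47.1 FPKM) weighed most in these sums. Id4, Lin28a, Sohlh1 and Rhox13 were at their highest there, while Zbtb16, Sall4, Nanos3, Sohlh2 and Dmrtb1 were at their lowest. By mean log2(FPKM + 0.1) this library was highest for neither list, at 2.91 against up to 3.14 and 4.30 against up to 4.42. The part of these markers in the members' values was not tested.

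**Figure D5:**
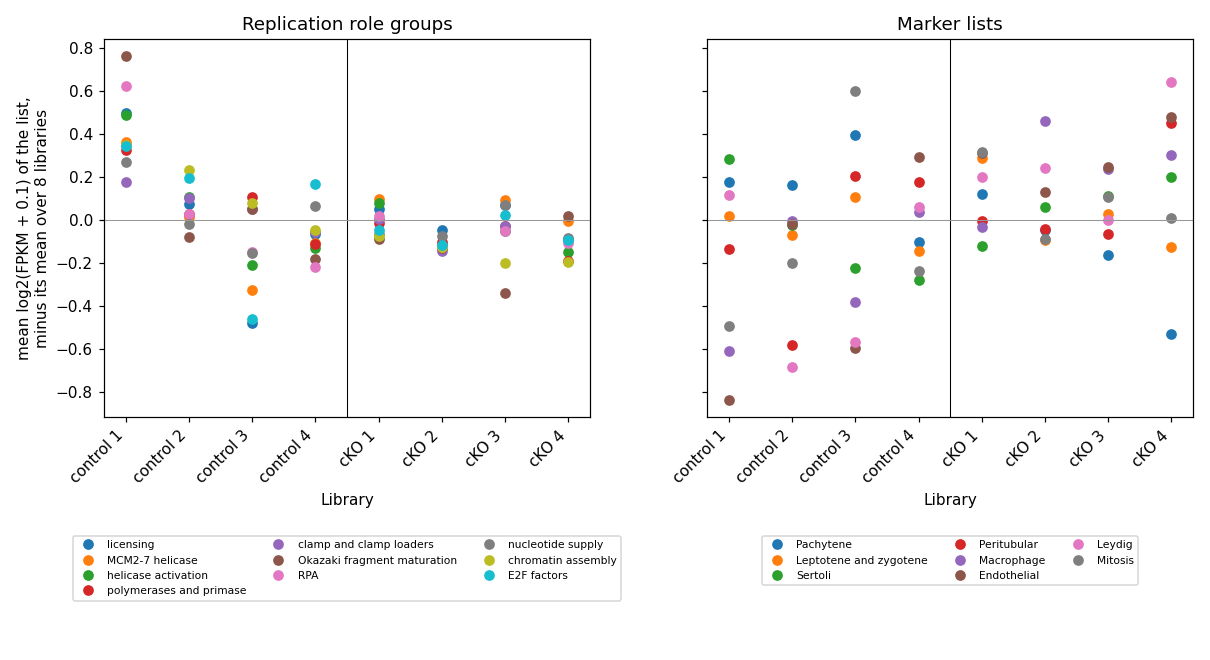
Mean log2(FPKM + 0.1) of each role group (left) and of marker lists (right) in each library, minus the list's mean over 8 libraries. All 10 role groups are above 0 in control replicate 1, and licensing genes and E2F factors reach -0.48 and -0.46 in control replicate 3. In cKO libraries the role groups lie between -0.34 (Okazaki fragment maturation, cKO replicate 3) and 0.10 (MCM2-7 helicase, cKO replicate 1).

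Marker lists were also compared between the groups, and the smallest limma adjusted p of any marker tested was 0.172. Of 5 pachytene markers tested, 3 (Ldhc, Piwil1 and Adam3) were lower in cKO libraries at an unadjusted p below 0.05, beside 5% of all genes. Of 3 endothelial markers 2 were higher, and of 3 macrophage, 2 peritubular and 2 Leydig markers 1 each was higher, beside 5.89% of all genes. In either direction, 0 of 6 Sertoli markers and 0 of 5 mitosis markers passed. Macrophage markers summed to 3.73 to 6.24 FPKM in controls and 5.87 to 8.35 FPKM in cKO libraries, endothelial markers to 4.06 to 10.4 FPKM and 9.56 to 12.4 FPKM, peritubular markers to 42.7 to 73.1 FPKM and 71.6 to 101 FPKM, and Leydig markers to 15.6 to 33.2 FPKM and 25.2 to 41.0 FPKM.

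Of 6 markers of differentiating spermatogonia and preleptotene cells, 1 was lower (Stra8) and 2 were higher (Sohlh2 and Dmrtb1) at this unadjusted p, beside the same shares. Stra8, the retinoic acid target that marks entry into meiosis and premeiotic S phase, averaged 10.8 ± 7.05 FPKM in controls and 3.40 ± 1.17 FPKM in cKO libraries (SD, n = 4). Its control values again spanned a wide range, and 4.53 FPKM in control replicate 2 fell among the cKO values. Of 7 markers of undifferentiated spermatogonia 1 (Etv5) was higher, and of 6 leptotene and zygotene markers 1 was lower (Prdm9) and 1 higher (Meiob). The part of these cell types in the members' differences was not tested.

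A further 66 genes of the replication pathway that are not members were examined by the same test. All 66 were found and tested, 0 were called DE, 5 (7.58%) were lower in cKO libraries at an unadjusted p below 0.05 and 0 were higher, beside the same 5% and 5.89% of all genes. The 5 were Ccne2, Dna2, Donson, Cdc7 and Nasp. The median log2 fold change of the 66 was -0.11, against 0.01 over all genes tested. It was below 0 in 44 of 66 (66.7%), beside 48.0% of all genes. On the TPM scale 35 of 66 were below 0, beside 32.6%. Without control replicate 1 this was 40 of 66, beside 42.8%.

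Ccne2 (chr4:11191351-11204779), a cyclin that drives Cdk2 at the start of S phase, was 27.3, 21.6, 22.6 and 21.7 FPKM in controls and 18.8, 15.3, 15.7 and 13 FPKM in cKO libraries. All controls were above all cKO libraries, with a log2 fold change of -0.57 (limma adjusted p = 0.172, standard error 0.13). Dna2 (chr10:62947026-62974185), a nuclease of Okazaki flaps and DNA ends, was 7.72, 5.14, 7.18 and 5.37 FPKM in controls and 3.54, 4.42, 4.12 and 4.62 FPKM in cKO libraries. Its groups did not overlap either, with a log2 fold change of -0.58 (limma adjusted p = 0.23, standard error 0.16). Donson (chr16:91676808-91688770), which helps to bring GINS to the helicase, was 32.8, 25.2, 25.2 and 22.3 FPKM in controls and 21.3, 18.4, 18.8 and 17.9 FPKM in cKO libraries. Here too the controls were above, with a log2 fold change of -0.45 (limma adjusted p = 0.258, standard error 0.13). All 3 kept an unadjusted p below 0.05 with each library left out in turn. They were picked for having the lowest p of the 66. Over the 66, the groups did not overlap in 4 that were lower in cKO libraries (6.06%), beside 2.59% of all genes. They did not overlap in 0 that were higher, beside 3.64%.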

How the data were processed

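RNA from whole testes of 4 control and 4 cKO mice was sequenced, 1 library per mouse. The authors deposited FPKM values, made with their sequencing company's software, and their own calls used DESeq2. The labels name GRCm38 and mm10 as genome builds; the aligner, the counter and the use of strand are not given in the sources used here. The submitters' labels name a column kit for the RNA where the methods name Trizol, and give later tamoxifen days. After multiplying by gene length, 100% of the values came out as whole numbers of fragments (tolerance 0.02), which gave the fragments per library. The values already hold a per-library scaling of 0.938 to 1.05 times the fragment total. Fragments set the counting error, which is smaller for deeply covered genes (up to 6052 fragments for Mcm7) than for Fen1 (from 35).

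The deposited FPKM values entered limma 3.58.1 (R 4.3.3) as log2(FPKM + 0.1), with a mean-variance trend in eBayes and no covariates. The 12141 protein-coding genes kept had mean values over 1 FPKM in each group. A log2 fold change on this scale understates that of low genes. DE needed a Benjamini-Hochberg adjusted p under 0.05 and a log2 difference beyond 1; an unadjusted p below 0.05 was counted too. The procedure was tested on simulated data. The members, roles, lists and tests were chosen with earlier results of these data known. Full values are given for members with an unadjusted p below 0.05 or groups without overlap, the most abundant member of each role, Pcna, and the 3 other pathway genes with the lowest p; any further gene was picked with its values in view. Promoters came from RefSeq (GRCm38.p6), where 9 members had no entry; coordinates of 45 of 46 members equalled those of GENCODE M21. For promoters the rule asked for members with full values, which was Mcm7 alone, so those printed were chosen afterwards. Marker lists held 2 names with no row of their own, Meiosin and H1f6. Same-numbered libraries of the groups deviated together at correlations of 0.288, 0.131, 0.0757 and 0.406, 1 of them below 0.1. Differently numbered libraries ranged from -0.474 to 0.162. The numbers were not taken as pairs in the main test, and a fit with them as a block is given below. Replicates differed by at least 3.93 times the sampling noise, so each counted as 1 sample. The study's other data types were not analysed here. Figures were drawn with matplotlib 3.10.9.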

Additional observations from a re-analysis of the deposited data

Results flagged for a closer look

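Each member's 4 values per group were checked for a value far from the other 3, over 92 groups of 4. If groups were independent, chance would flag about 1 in 20, or 4.6 here, and 10 were found, of which 6 lay in control replicate 1. The groups share the same libraries and are not independent, so 10 against 4.6 is no test. The share of all genes flagged by this rule is not given here. In that library Dscc1 was 5.48 FPKM (2.37 to 2.63 in the other controls), Gins4 66.5 FPKM (23.8 to 30.5), Gmnn 57.9 FPKM (26.5 to 30.3), Rpa3 38.6 FPKM (15 to 17.8), Rrm1 21.9 FPKM (15.3 to 16.0) and Rrm2 22.3 FPKM (12.5 to 13.2). All 6 were high. Control replicate 2 was low for Pole2 at 2.80 FPKM (3.53 to 3.56 in the other controls). In cKO libraries, Rpa3 was 15.8 FPKM in replicate 1 (17.1 to 17.2 in the others), Orc1 was 8.03 FPKM in replicate 3 (7.33 to 7.35) and Rfc1 was 22.6 FPKM in replicate 4 (21.4 to 21.5). These 3 differ from their group by far less than the values of control replicate 1.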

How the results depend on the processing

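Of 21 alternative settings, 1 was chosen after seeing the data, in which control replicates 1 and 3 were left out together. No member was called DE under any of the 21, and the members' median log2 fold change stayed below 0, from -0.15 to -0.02 with 1 library left out and -0.01 on the TPM scale. Members lower in cKO at an unadjusted p below 0.05 numbered 3 on the TPM scale, where 2.97% of all genes were lower, and 2 to 7 with 1 library left out, where 2.67% to 7.81% were; the main test had 5. With array weights 7 members were lower, beside 9.93% of all genes, and 1 (Pole2) was higher, beside 11%. In either direction, 9 of the 66 other pathway genes passed this p with array weights, beside the 9.93% lower and 11% higher of all genes together. This count was 3 on the TPM scale, beside 2.97% lower and 7.47% higher together. With 1 library left out it was 3 to 6, where 2.67% to 7.81% of all genes were lower and 2.98% to 9.66% higher. The filter of a mean above 5 FPKM left 35 members, 4 of them lower at this p, beside 4.44% of all genes. The array weights, 0.161 for control replicate 1 and 4.45 for cKO replicate 3, brought 454 of all genes to an adjusted p below 0.05, but 0 members.

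A fit with the replicate number as a block gave 0 DE members. At an unadjusted p below 0.05, 5 members were lower, beside 6.81% of all genes, and 0 were higher, beside 7.82%. The members' median was -0.09. In either direction, 6 other pathway genes of 66 passed this p, beside both of these shares of all genes together. With this pairing no call of a member changed.

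Over all 46 members, 36 were below 0 in the main test and 25 on the TPM scale or without control replicate 1. Among the 16 given with full values, signs turned as follows. With array weights the log2 fold change was 0.0134 for Pold1, 0.00499 for Rpa2 and 0.16 for E2f1. On the TPM scale it was 0.0362 for Mcm7, 0.0564 for Rpa2 and 0.00364 for E2f1. With 1 library left out it ranged from -0.31 to 0.0647 for Gmnn, -0.15 to 0.10 for Mcm7, -0.47 to 0.0195 for Gins4, -0.28 to 0.19 for Pold1, -0.14 to 0.16 for Rpa2 and -0.39 to 0.25 for E2f1, each highest without control replicate 1. Without control replicates 1 and 3 it was 0.10 for Gmnn, 0.11 for Mcm7, 0.24 for Pold1, 0.12 for Rpa2 and 0.00201 for Rrm1. The cause was not tested. Depth limits the low members, such as Fen1 (35 to 70 fragments), E2f8 (77 to 196), Pole2 (134 to 210) and Dscc1 (120 to 318).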
